A study of Mus musculus with 12 samples.

Results

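Levels are described here for 37 developmental transcription factor genes of the PAX, sine oculis (Six2 to Six5), MSX, DLX, LHX, EMX, MEIS, PBX, PITX, PRRX, IRX and SATB families, out of 55385 genes in the deposited table. They were taken as a named list of homeobox and paired box genes, without a threshold on their values. The list was chosen with earlier results of these data known, so it is not independent of them. Of the 37, 28 had enough counts to be tested. RNA was sequenced from C57BL/6 mouse cells in 3 groups of 4 libraries. The groups were the endometrial cancer line HPmECC (titles coded WT), the endometrial cancer line mECC (titles coded DM) and primary cultured normal endometrium cells (titles coded B6). The codes are not explained by the titles. The series' design text mentions overexpression of Myc, a growth-promoting transcription factor, in cancer lines that the labels do not name. Each cancer group is 1 cell line, and no label gives separate cultures or animals for the 4 libraries of a group, so the p-values reflect no more than the spread among libraries, part or all of which may be technical.

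Homeodomain proteins bind DNA through a conserved helical fold and set regional and cell type identity in the embryo. PAX proteins bind through a paired domain, and some of them carry a whole or partial homeodomain as well. MEIS, PBX and IRX proteins belong to the TALE class, whose homeodomain has extra residues in its first loop, and MEIS and PBX act as partners of other homeodomain proteins. In the female tract, Pax2, Emx2 and Lhx1 are needed to form the duct that gives rise to the uterus, and Pax8 marks its epithelium. Msx1 and Msx2 act in the uterine epithelium at implantation in the mouse.

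Library totals were 18402202 to 26873582 counts for HPmECC, 21755275 to 25821106 for mECC and 16332060 to 24202564 for normal cells. Myc stood at 266 ± 24.0 CPM over the HPmECC libraries, 59.4 ± 2.09 CPM over the mECC libraries and 111 ± 5.05 CPM over the normal libraries (SD, n = 4 each), so it was highest in HPmECC. CPM here means counts relative to library size after TMM scaling, which sets libraries to a common scale of their typical gene. All 8 epithelial markers were detected in each group, and their summed level was 351 to 369 TPM in HPmECC, 1548 to 1604 TPM in mECC and 7422 to 7788 TPM in normal cells. TPM is a transcript's abundance relative to all transcripts of the library, corrected for transcript length. In the normal cultures, marker sums were 2332 to 2832 TPM for smooth muscle (6 markers) and 357.1 to 384.2 TPM for mesothelium (6 markers). They were 248.9 to 266.4 TPM for leukocytes (8 markers) and 40.04 to 45.8 TPM for endothelium (6 markers). A few abundant genes weighed most, so the sums do not measure amounts of a cell type. In normal cells Tagln averaged 1500 TPM and Acta2 992 TPM, but Myh11 2.30 TPM. Msln averaged 321 TPM and Upk3b 9.41 TPM, and Lyz2 averaged 123.5 TPM and Ptprc 0.41 TPM. In HPmECC and mECC the leukocyte sums were 18.24 to 23.14 and 9.56 to 13.01 TPM, with 3 of 8 markers at 0 counts in each line. The mesothelial sums were 23.53 to 27.0 TPM in HPmECC and 43.01 to 51.2 TPM in mECC, and the endothelial sums 1.73 to 2.62 and 1.3 to 1.5 TPM. Smooth muscle markers summed to 201.5 to 283.5 TPM in HPmECC and 59.93 to 62.29 TPM in mECC. Of the 4 neural crest and glia markers the sum did not exceed 1.08 TPM in any library, and of the 4 ovary and oviduct markers it did not exceed 5.41 TPM. In RNA from whole cultures, fewer cells of a type and less RNA per cell cannot be told apart, and the part of these other cell types in the results below was not tested.

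The makeup of the family differed between the cancer lines and normal cells. Per length, the most abundant members in HPmECC were Prrx2 at 93.0 ± 5.90 TPM, Prrx1 at 76.4 ± 0.518 TPM and Pbx2 at 66.7 ± 3.84 TPM (SD, n = 4). In mECC they were Prrx2 at 169.7 ± 1.91 TPM, Prrx1 at 91.4 ± 6.13 TPM and Emx2 at 71.4 ± 4.09 TPM, with Pbx2 next at 66.6 ± 4.92 TPM, and the libraries of Emx2 and Pbx2 overlapped. In normal cells the order was Pax8 at 255 ± 13.9 TPM, Dlx5 at 84.1 ± 2.79 TPM, Msx2 at 40.1 ± 2.25 TPM and Dlx6 at 37.8 ± 3.97 TPM. The normal libraries of Msx2 and Dlx6 overlapped. Prrx2, the leading member in both lines, was at 1.66 ± 0.477 TPM in normal cells, and Pax8, the leading member in normal cells, at 1.67 ± 0.712 TPM in HPmECC and 28.2 ± 1.78 TPM in mECC. Of the 22 members with a mean of at least 5 CPM in some group, 5 were highest in HPmECC, 10 in mECC and 7 in normal cells, counting group means of CPM only. The share over all genes was not computed, so these numbers do not describe the family. Some places were close. Six5, Pbx2 and Dlx1 did not differ between the lines by the test below, nor Msx2 between mECC and normal cells. By TPM, Msx2 was highest in mECC, at 45.1 TPM beside 40.1 TPM in normal cells.

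**Figure D1:**
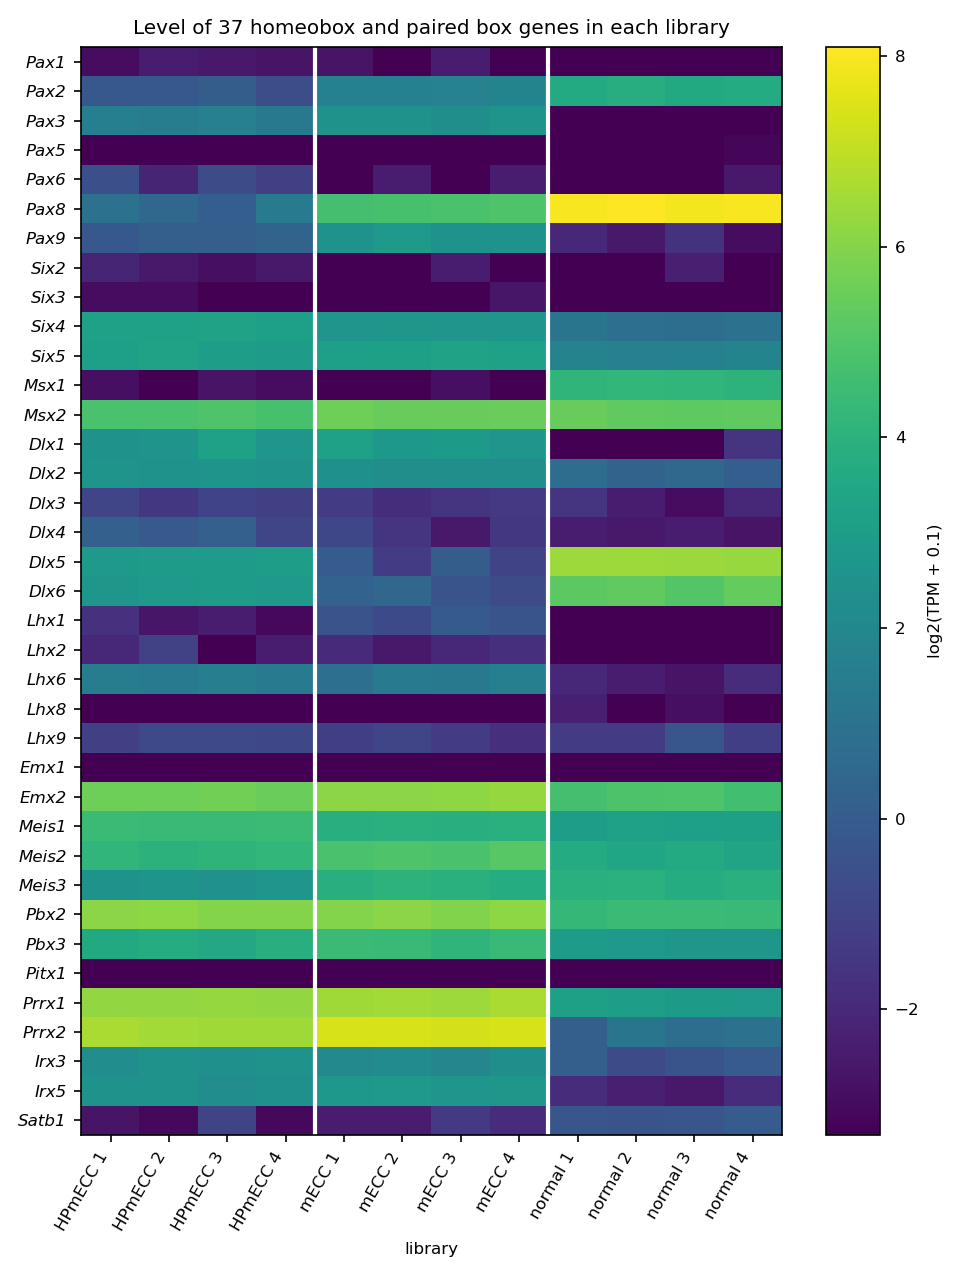
Level of each of the 37 members (rows) in each of the 12 libraries (columns), as log2(TPM + 0.1), with white lines between HPmECC, mECC and normal cells. Pax8, Dlx5, Dlx6 and Msx1 are bright in the normal libraries, and Prrx1, Prrx2, Pax3, Dlx1 and Irx5 in the libraries of both cancer lines.

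Differences were tested gene by gene with edgeR's quasi-likelihood test across 15283 genes, with a call at a Benjamini-Hochberg adjusted p below 0.05. Between HPmECC and mECC, 8 of the 28 tested members were higher in HPmECC and 13 lower, where 33.8% and 34.5% of all genes tested were called. By limma on log2(TPM + 1) these counts were 5 and 13. With a change of at least 2-fold also required, 3 were higher (Dlx4, Dlx5 and Dlx6) and 5 lower (Pax2, Pax8, Pax9, Lhx1 and Meis3), where 6.73% and 9.4% of all genes were. The median log2 fold change of the tested members was -0.13, beside 0.00 over all genes.

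Between mECC and normal cells, 17 tested members were higher in mECC and 7 lower, where 42.1% and 44.2% of all genes were called. With the 2-fold minimum 16 were higher and 6 lower, where 18.4% and 22.8% of all genes were. The median log2 fold change of the tested members was 1.26, beside -0.02 over all genes. Between HPmECC and normal cells, 19 were higher in HPmECC and 8 lower, where 43.0% and 43.3% of all genes were called. With the 2-fold minimum 16 were higher and 7 lower, where 18.5% and 23.0% of all genes were. The 16 include Lhx1 by its fitted change, although its bound against 0 counts in normal cells was only 1.77-fold. The members' median was 1.24 beside 0.00, or 1.17 with members at 0 counts in normal cells set to their bound. The comparisons of each line with normal cells share the 4 normal libraries. Of the 28 tested members, 17 had a mean of at least 10 counts in all 3 groups, 6 in 2 groups and 5 in a single group. Members below that level in 1 or 2 groups, such as Pax3, Dlx1 and Msx1, entered the test only through the groups where they were high. These counts are therefore not support for a shift of the family. Library totals in place of TMM moved the median log2 fold change of all genes between mECC and normal cells to 0.22, in place of -0.02, and gave 7866 genes higher and 5453 lower in mECC in place of 6436 and 6748. For the members it gave 20 higher and 6 lower in that comparison.

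**Figure D2:**
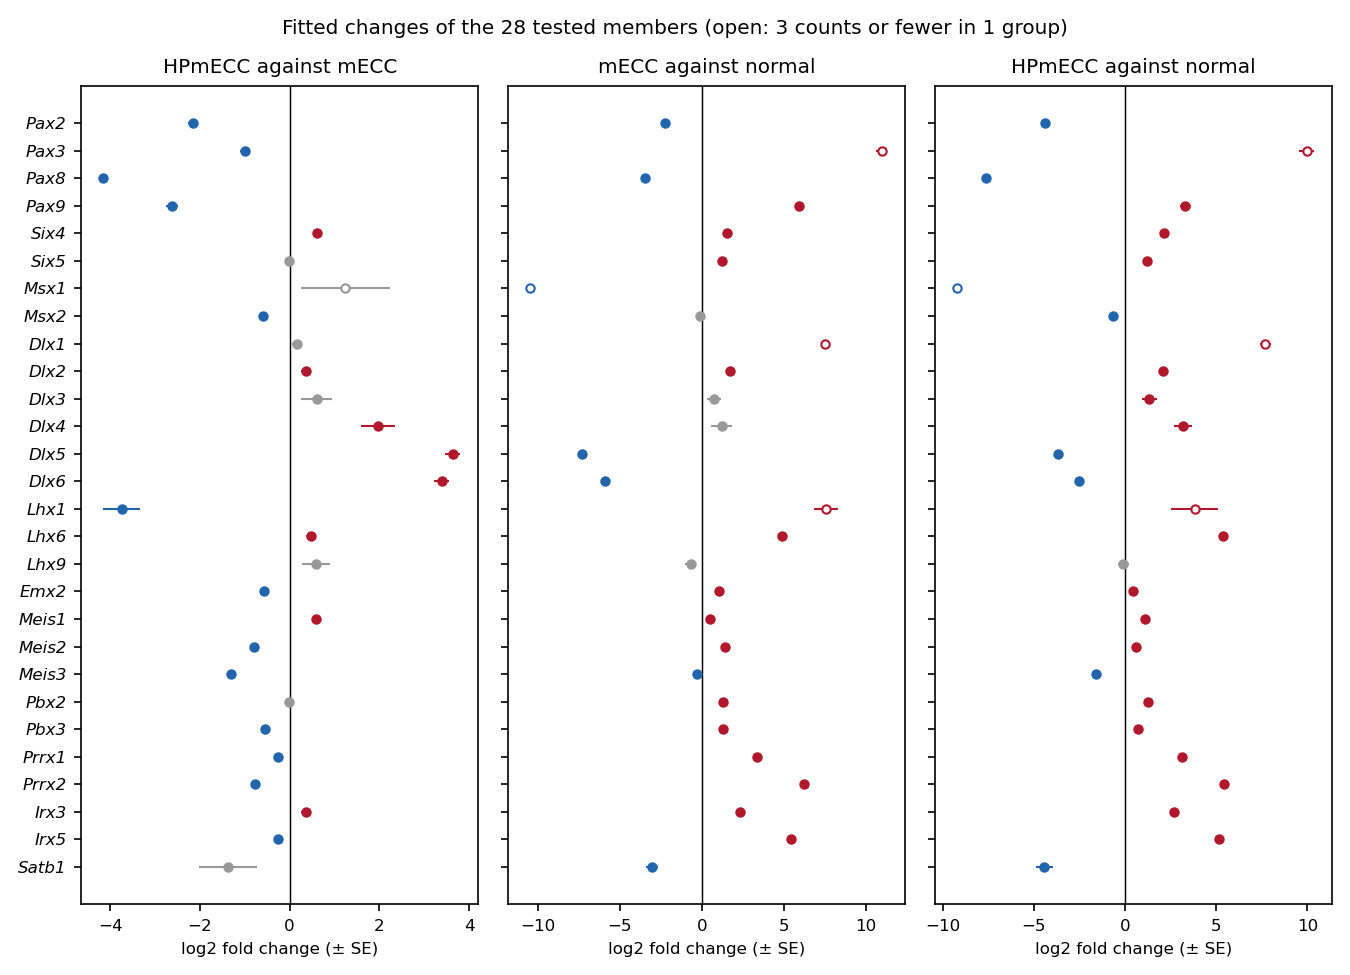
Fitted log2 fold changes with SE for the 28 tested members in the 3 comparisons, red for called higher, blue for called lower and grey for not called at an adjusted p of 0.05. Open points mark members with 3 counts or fewer in 1 of the groups, whose fitted change depends on the prior count and is no bound. Pax2 and Pax8 lie left of 0 in all panels, and Dlx5 and Dlx6 lie right of 0 between the cancer lines and left of 0 against normal cells.

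Pax8 and Pax2, close relatives that mark the epithelium of the uterine duct, were lower in HPmECC than in mECC and lower in both lines than in normal cells. Pax8 (chromosome 2, 24420560 to 24475599 of GRCm38) had 2.05, 1.79, 1.42 and 1.73 CPM across the HPmECC libraries, 33.9, 31.8, 30.7 and 31.2 CPM across the mECC libraries and 341, 358, 332 and 349.8 CPM across the normal libraries. Every library of a group lay below every library of the next, with no overlap. Pax8 was 18.1-fold lower in HPmECC than in mECC (edgeR adjusted p = 8.34e-19, log2 fold change -4.17 with SE 0.07). It was 10.8-fold lower in mECC than in normal cells (edgeR adjusted p = 8.95e-23, log2 fold change -3.44 with SE 0.04) and 195-fold lower in HPmECC than in normal cells (edgeR adjusted p = 7.10e-25, log2 fold change -7.61 with SE 0.06). The exons of Pax8 share 367 bases with those of Gm13415, a noncoding gene on the opposite strand, and no strand setting is stated, so reads from the shared stretch cannot be assigned. Gm13415 was highest in mECC and lowest in normal cells, at 4.46 ± 0.48 CPM over the HPmECC libraries, 9.97 ± 0.56 CPM over the mECC libraries and 0.30 ± 0.07 CPM over the normal libraries (SD, n = 4 each). It was 31.6-fold higher in mECC than in normal cells (edgeR adjusted p = 7.93e-16), 14.2-fold higher in HPmECC than in normal cells (edgeR adjusted p = 3.43e-13) and 2.22-fold lower in HPmECC than in mECC (edgeR adjusted p = 3.68e-09). In HPmECC its 440 counts exceeded the 172 of Pax8, so how low Pax8 was there is uncertain, as are the folds that use this level. Pax8 had 3250 counts in mECC and 25578 in normal cells.

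Pax2 (chromosome 19, 44756045 to 44837871 of GRCm38) had 1.58, 1.57, 1.52 and 1.25 CPM across the HPmECC libraries, 6.29, 6.61, 6.81 and 6.72 CPM across the mECC libraries and 29.8, 32.8, 28.9 and 31.8 CPM across the normal libraries. The groups did not overlap, and the order was that of Pax8. Pax2 was 4.47-fold lower in HPmECC than in mECC (edgeR adjusted p = 1.53e-12, log2 fold change -2.16 with SE 0.10), 4.66-fold lower in mECC than in normal cells (edgeR adjusted p = 2.12e-16) and 20.8-fold lower in HPmECC than in normal cells (edgeR adjusted p = 3.08e-19). Pax2 shared no exon bases with another annotated gene.

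Pax3 and Pax9 showed the other pattern, with transcripts in both cancer lines, more of them in mECC, and few or none in normal cells. Pax3, known for its role in neural crest and muscle precursors, had 5.84, 5.50, 5.98 and 4.57 CPM across the HPmECC libraries and 11.1, 11.1, 10 and 11.4 CPM across the mECC libraries, and 0 counts in all 4 normal libraries. Its gene lies on chromosome 1, 78101267 to 78197134 of GRCm38. Against a floor of 3 counts over the 4 normal libraries, Pax3 was at least 268-fold higher in mECC and at least 134-fold higher in HPmECC than in normal cells (edgeR adjusted p = 2.75e-14 and 9.19e-13). In HPmECC it was just under 2-fold lower than in mECC (edgeR adjusted p = 2.57e-07, log2 fold change -1 with SE 0.10). The neural crest and glia marker Sox10 had 2 counts over the HPmECC libraries, 0 over the mECC libraries and 9 over the normal libraries.

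Pax9, a factor of pharyngeal pouch and skeletal development, had 1.88, 1.61, 2.204 and 2.06 CPM across the HPmECC libraries, 11.4, 13.2, 11.6 and 11.6 CPM across the mECC libraries and 0.203, 0.156, 0.386 and 0.0459 CPM across the normal libraries. The mECC libraries were highest, the normal libraries lowest, and the groups did not overlap. It was 6.21-fold lower in HPmECC than in mECC (edgeR adjusted p = 3.42e-12, log2 fold change -2.64 with SE 0.13), 61.4-fold higher in mECC than in normal cells (edgeR adjusted p = 4.26e-15) and 9.88-fold higher in HPmECC than in normal cells (edgeR adjusted p = 5.42e-09). Exons of Slc25a21, a protein-coding gene on the opposite strand, share 189 bases with those of Pax9. Slc25a21 had 0 counts in HPmECC, 22 in mECC and 0 in normal cells, against 187, 1223 and 14 of Pax9. The remaining PAX members were scarce. Pax1, a factor of the vertebral column, had 9 counts in HPmECC, 4 in mECC and 0 in normal cells, summed over 4 libraries each. Pax6, the eye and pancreas factor, had 20, 5 and 2 counts in HPmECC, mECC and normal cells, and Pax5, the B cell factor, had 0, 0 and 1.

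**Figure D3:**
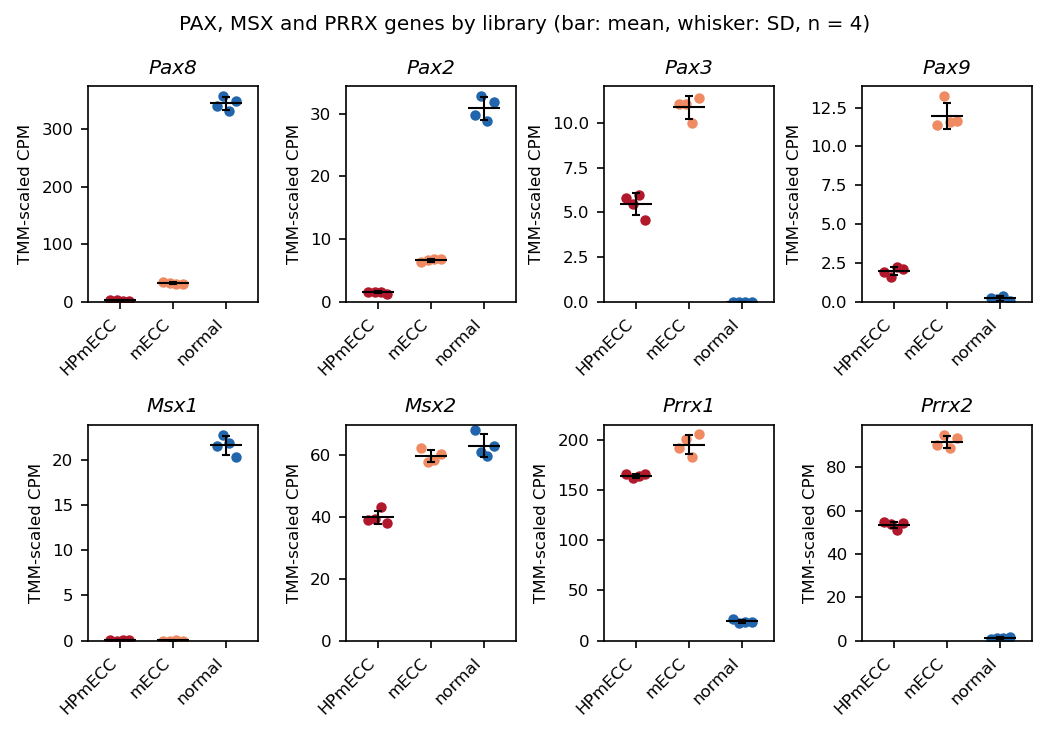
TMM-scaled CPM of 4 PAX, 2 MSX and 2 PRRX genes, 1 point per library, with the mean as a bar and the SD as a whisker (n = 4 per group; each panel has its own axis from 0). Pax8, Pax2 and Msx1 are highest in the normal libraries, and Pax3, Pax9, Prrx1 and Prrx2 in the mECC libraries.

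Of the MSX pair, which encodes closely related repressors, Msx1 was near the limit of detection in both cancer lines, and Msx2 was well above it in all groups. Msx1 (chromosome 5, 37820485 to 37824583 of GRCm38) had 0.0426, 0, 0.0525 and 0.0368 CPM across the HPmECC libraries, 0, 0, 0.0362 and 0 CPM across the mECC libraries and 21.5, 22.7, 21.9 and 20.2 CPM across the normal libraries. These are 3 counts in the 4 HPmECC libraries, 1 in the 4 mECC libraries and 1592 in the 4 normal libraries. The ratio of normal cells to HPmECC was 701 (exact 95% counting interval 239 to 3400, edgeR adjusted p = 2.77e-18). That of normal cells to mECC was 2200 (394 to 86800, edgeR adjusted p = 2.19e-18). Between the lines Msx1 was not called (edgeR adjusted p = 0.342), at levels where a difference was not detectable.

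Msx2 (chromosome 13, 53466884 to 53473074 of GRCm38) had 39.0, 39.2, 43.0 and 38.1 CPM across the HPmECC libraries, 62.2, 57.8, 58.2 and 60.3 CPM across the mECC libraries and 68.2, 61.0, 59.8 and 62.9 CPM across the normal libraries. The HPmECC libraries were lowest and apart from the rest, and the mECC and normal libraries overlapped. Msx2 was 1.5-fold lower in HPmECC than in mECC (edgeR adjusted p = 1.60e-09, log2 fold change -0.59 with SE 0.04) and 1.58-fold lower in HPmECC than in normal cells (edgeR adjusted p = 1.14e-10). Between mECC and normal cells it was not called (log2 fold change -0.08 with SE 0.04, edgeR adjusted p = 0.116), and its direction flipped with the scaling. It was -0.10 with median-of-ratios factors (edgeR adjusted p = 0.0452), 0.16 with library totals (edgeR adjusted p = 0.00242) and 0.17 by limma on log2(TPM + 1) (adjusted p = 0.00549).

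The start regions of the MSX pair are shown because the relatives stood at very different levels in the cancer lines. Each is the GRCm38.p6 sequence that RefSeq places from 250 bases before to 50 bases after the start, on the gene's strand. Capitals mark TAATTA, the core that many homeodomains bind, and CACGTG, the canonical E-box that Myc and its partner Max bind. Both words read the same on either strand, and no matches overlap. TAATTA occurs in 5.29% and CACGTG in 7.17% of 32544 such windows over all genes. Msx1 lies at chr5:37824536-37824835 on the minus strand, with 29 CG dinucleotides, and Msx2 at chr13:53472731-53473030 on the minus strand, with 22, where the median window has 7.
Msx1: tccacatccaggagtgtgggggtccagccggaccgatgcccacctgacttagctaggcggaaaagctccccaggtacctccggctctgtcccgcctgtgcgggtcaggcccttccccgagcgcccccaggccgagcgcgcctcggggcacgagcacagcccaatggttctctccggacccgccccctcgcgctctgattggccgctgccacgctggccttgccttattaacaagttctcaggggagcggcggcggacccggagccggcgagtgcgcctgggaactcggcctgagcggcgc
Msx2: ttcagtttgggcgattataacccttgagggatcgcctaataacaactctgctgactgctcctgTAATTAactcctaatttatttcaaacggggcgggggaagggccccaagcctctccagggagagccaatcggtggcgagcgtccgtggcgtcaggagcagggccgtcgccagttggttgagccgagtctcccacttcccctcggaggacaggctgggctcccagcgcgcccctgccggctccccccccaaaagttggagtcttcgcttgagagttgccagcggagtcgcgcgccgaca
A match is a description of the letters only. The Msx2 window holds 1 TAATTA and the Msx1 window neither word.

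The 6 DLX members, relatives of the Drosophila gene Distal-less, lie in 3 pairs on chromosomes 2, 11 and 6, and each pair has its members tail to tail on opposite strands. No protein-coding gene lies between the members of a pair, and the gaps are 9426 bases for Dlx1 and Dlx2, 15150 bases for Dlx3 and Dlx4, and 9236 bases for Dlx6 and Dlx5. In these cells the pairs took different directions. Dlx5 and Dlx6 were high in normal cells and near the limit of detection in mECC, with an intermediate level in HPmECC, whereas Dlx1 and Dlx2 were higher in both lines than in normal cells.

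Dlx5, a factor of skeletal and genital development, had 5.24, 5.72, 5.62 and 6.08 CPM across the HPmECC libraries, 0.641, 0.218, 0.652 and 0.298 CPM across the mECC libraries and 73.0, 73.7, 69.7 and 69.8 CPM across the normal libraries. Every normal library was above every HPmECC library, and every HPmECC library above every mECC library. Dlx5 was higher in HPmECC than in mECC, 12.5-fold (edgeR adjusted p = 1.10e-12, log2 fold change 3.64 with SE 0.17), 157-fold lower in mECC than in normal cells (edgeR adjusted p = 8.00e-21, log2 fold change -7.29 with SE 0.11) and 12.6-fold lower in HPmECC than in normal cells (edgeR adjusted p = 4.41e-19, log2 fold change -3.65 with SE 0.07). Its neighbour Dlx6 had 3.67, 3.61, 4.46 and 4.16 CPM across the HPmECC libraries, 0.385, 0.400, 0.435 and 0.255 CPM across the mECC libraries and 21.9, 24.1, 20 and 23.9 CPM across the normal libraries. The groups were in the same order and did not overlap. Dlx6 was higher in HPmECC than in mECC, 10.5-fold (edgeR adjusted p = 5.13e-12, log2 fold change 3.39 with SE 0.18), 59.6-fold lower in mECC than in normal cells (edgeR adjusted p = 3.98e-18) and 5.69-fold lower in HPmECC than in normal cells (edgeR adjusted p = 4.92e-15). Dlx5 lies at 6877805 to 6882085 on the minus strand of chromosome 6 and Dlx6 at 6863334 to 6868568 on the plus strand (GRCm38). Dlx6os2 and Dlx1as, on the strands opposite to Dlx6 and Dlx1, share 104 and 335 exon bases with them and had at most 5 counts in a group.

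A noncoding gene of the same locus, Dlx6os1, had the same order of groups as Dlx5 and Dlx6. It lies on the strand opposite to Dlx6 and shares no annotated exon bases with it. Dlx6os1 had 1.15, 0.894, 1.52 and 1.07 CPM across the HPmECC libraries, 0.0428, 0.145, 0.326 and 0.426 CPM across the mECC libraries and 5.75, 5.97, 4.74 and 6.66 CPM across the normal libraries. The 3 groups did not overlap. It was higher in HPmECC than in mECC, 4.74-fold (edgeR adjusted p = 1.79e-05), 24.1-fold lower in mECC than in normal cells (edgeR adjusted p = 2.07e-11) and 5.08-fold lower in HPmECC than in normal cells (edgeR adjusted p = 1.13e-08).

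Dlx1, which acts with Dlx2 in the forebrain and the jaw, had 8.44, 9.87, 10.6 and 9.39 CPM across the HPmECC libraries and 8.89, 8.25, 7.90 and 9.28 CPM across the mECC libraries, against 3 counts in the 4 normal libraries, all in replicate 4. The libraries of the lines overlapped, and all 8 were above the normal libraries. The ratio to normal cells was 235 for HPmECC (exact 95% counting interval 80.2 to 1140, edgeR adjusted p = 9.39e-15) and 211 for mECC (71.8 to 1020, edgeR adjusted p = 1.75e-14). Between the lines it was not called (log2 fold change 0.16, edgeR adjusted p = 0.21), and the direction was the opposite by limma on log2(TPM + 1), at -0.12. Dlx2 had 7.84, 7.36, 7.77 and 7.81 CPM across the HPmECC libraries, 6.37, 5.96, 5.91 and 5.79 CPM across the mECC libraries and 2.57, 1.56, 1.76 and 1.56 CPM across the normal libraries. No groups overlapped, and the gap between the lines was small. Dlx2 was higher in HPmECC than in mECC, 1.28-fold (edgeR adjusted p = 0.00386), a call lost by limma on log2(TPM + 1) (adjusted p = 0.061). Against normal cells it was 3.29-fold higher in mECC (edgeR adjusted p = 3.74e-10, log2 fold change 1.72 with SE 0.13) and 4.21-fold higher in HPmECC (edgeR adjusted p = 1.38e-11, log2 fold change 2.08 with SE 0.13).

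The third pair was low throughout. Dlx3, a factor of skin and placenta, averaged 0.531 ± 0.105 CPM over the HPmECC libraries, 0.348 ± 0.0748 CPM over the mECC libraries and 0.212 ± 0.148 CPM over the normal libraries, and was called only in HPmECC against normal cells (2.54-fold higher, edgeR adjusted p = 0.00519), although the libraries of these groups overlapped. Dlx4 averaged 0.916 ± 0.289 CPM over the HPmECC libraries, 0.233 ± 0.146 CPM over the mECC libraries and 0.0988 ± 0.0378 CPM over the normal libraries (SD, n = 4 each). It was higher in HPmECC than in mECC, 3.91-fold (edgeR adjusted p = 0.000172) and 9.03-fold higher than in normal cells (edgeR adjusted p = 8.62e-06). In mECC against normal cells neither passed the test (edgeR adjusted p = 0.12 for Dlx3 and 0.0816 for Dlx4), and both passed it with library totals in place of TMM (edgeR adjusted p = 0.0429 and 0.0391) and by limma on log2(TPM + 0.1) (adjusted p = 0.0264 and 0.0208). Dlx3 also passed without normal replicate 1 (edgeR adjusted p = 0.0294), and Dlx4 without mECC replicate 3 (edgeR adjusted p = 0.0228).

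**Figure D4:**
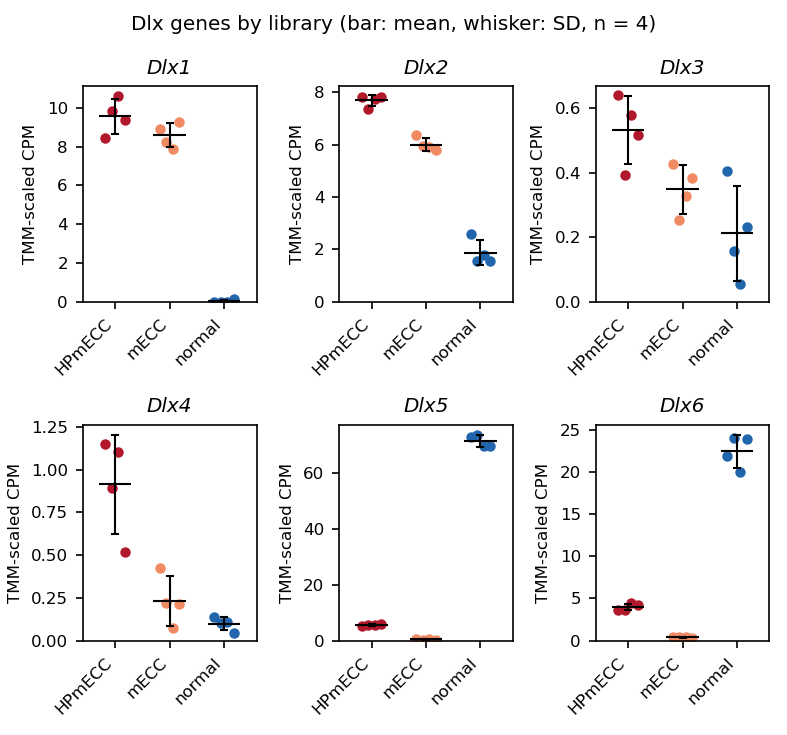
TMM-scaled CPM of the 6 DLX genes, 1 point per library, with the mean as a bar and the SD as a whisker (n = 4 per group; each panel has its own axis from 0). Dlx5 and Dlx6 are highest in the normal libraries, with 5.24 to 6.08 CPM of Dlx5 in HPmECC, and Dlx1 and Dlx2 are higher in the libraries of both cancer lines.

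For the pair that was higher in the lines, the RefSeq start regions lie at chr2:71529195-71529494 on the plus strand (Dlx1) and chr2:71546705-71547004 on the minus strand (Dlx2). They are shown to set side by side 2 neighbours, of which 1 was at 3 counts in normal cells and the other at 134. Windows for Dlx3, Dlx4, Dlx5 and Dlx6 are not given here.
Dlx1: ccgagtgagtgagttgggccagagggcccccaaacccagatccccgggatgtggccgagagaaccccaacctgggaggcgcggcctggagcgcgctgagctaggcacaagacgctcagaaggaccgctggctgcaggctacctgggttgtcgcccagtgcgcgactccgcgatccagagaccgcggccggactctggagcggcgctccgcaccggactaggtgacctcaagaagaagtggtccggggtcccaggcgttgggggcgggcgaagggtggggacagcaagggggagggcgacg
Dlx2: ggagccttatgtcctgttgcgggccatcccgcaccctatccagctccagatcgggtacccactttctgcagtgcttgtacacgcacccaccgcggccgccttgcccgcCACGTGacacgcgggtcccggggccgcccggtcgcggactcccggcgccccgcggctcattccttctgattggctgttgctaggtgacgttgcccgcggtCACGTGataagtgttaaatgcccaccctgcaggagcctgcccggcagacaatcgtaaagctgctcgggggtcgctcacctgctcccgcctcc
The windows hold 27 and 29 CG dinucleotides. The Dlx2 window holds CACGTG at 2 places, and it was the 1 window among those of the 29 members matched to a RefSeq start region that held it.

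The PRRX pair, factors of limb and facial mesenchyme, had the highest levels of the family per length in both lines. Prrx1 (chromosome 1, 163245119 to 163313710 of GRCm38) had 166, 162, 164 and 166 CPM across the HPmECC libraries, 192, 201, 183 and 206 CPM across the mECC libraries and 21.6, 17.9, 18.4 and 18.5 CPM across the normal libraries. All mECC libraries were above all HPmECC libraries, by a small margin, and both lines were far above normal cells. Prrx1 was 1.19-fold lower in HPmECC than in mECC (edgeR adjusted p = 1.06e-05, log2 fold change -0.25 with SE 0.04), 10.3-fold higher in mECC than in normal cells (edgeR adjusted p = 3.51e-21, log2 fold change 3.36 with SE 0.05) and 8.66-fold higher in HPmECC than in normal cells (edgeR adjusted p = 1.06e-20, log2 fold change 3.11 with SE 0.05). Prrx2 (chromosome 2, 30834972 to 30881251 of GRCm38) had 54.5, 53.6, 51.2 and 54.1 CPM across the HPmECC libraries, 90.1, 94.8, 89.0 and 93.5 CPM across the mECC libraries and 0.812, 1.04, 1.27 and 1.65 CPM across the normal libraries. The order was the same and no groups overlapped. It was 1.72-fold lower in HPmECC than in mECC (edgeR adjusted p = 7.05e-12, log2 fold change -0.78 with SE 0.04), 74.4-fold higher in mECC than in normal cells (edgeR adjusted p = 7.31e-22, log2 fold change 6.22 with SE 0.08) and 43.3-fold higher in HPmECC than in normal cells (edgeR adjusted p = 1.20e-20, log2 fold change 5.43 with SE 0.09). The 8 fibroblast and stroma markers, with which PRRX genes are often found, summed to 3687 to 3872 TPM in HPmECC, 3563 to 3854 TPM in mECC and 1016 to 1255 TPM in normal cells. In each line 4 of the 8 were called higher and 4 lower than in normal cells, and Thy1 was at 0 counts in mECC. Vim alone averaged 2990 TPM in HPmECC, 2669 TPM in mECC and 685 TPM in normal cells, so these sums mostly follow that gene.

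The start regions of the PRRX pair and of Pax8 are printed next, as those of the leading members in the cancer lines and in normal cells. They lie at chr1:163313601-163313900 (Prrx1, minus strand), chr2:30845117-30845416 (Prrx2, plus strand) and chr2:24475550-24475849 (Pax8, minus strand).
Prrx1: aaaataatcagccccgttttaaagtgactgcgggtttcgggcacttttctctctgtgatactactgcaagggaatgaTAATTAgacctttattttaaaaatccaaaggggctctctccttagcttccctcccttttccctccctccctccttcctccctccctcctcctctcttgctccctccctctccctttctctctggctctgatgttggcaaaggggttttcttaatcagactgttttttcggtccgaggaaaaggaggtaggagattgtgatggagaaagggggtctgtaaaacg
Prrx2: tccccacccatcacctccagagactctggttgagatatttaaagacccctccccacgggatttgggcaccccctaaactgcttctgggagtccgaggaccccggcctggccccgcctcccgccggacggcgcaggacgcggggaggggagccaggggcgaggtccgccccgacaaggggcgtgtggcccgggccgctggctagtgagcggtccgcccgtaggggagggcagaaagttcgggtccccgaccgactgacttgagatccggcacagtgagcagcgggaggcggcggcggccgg
Pax8: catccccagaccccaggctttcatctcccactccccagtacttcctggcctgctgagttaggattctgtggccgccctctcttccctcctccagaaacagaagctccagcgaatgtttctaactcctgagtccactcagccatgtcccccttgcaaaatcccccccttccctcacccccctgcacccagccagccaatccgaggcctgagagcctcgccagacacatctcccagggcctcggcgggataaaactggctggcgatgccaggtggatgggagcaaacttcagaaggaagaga
CG dinucleotides number 6 in the Prrx1 window, 28 in that of Prrx2 and 7 in that of Pax8. Over the 40 windows of the 29 matched members they ran from 3 to 45, with a median of 16.5. TAATTA was found in windows of 3 members, Prrx1, Msx2 and Emx2.

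Irx3 and Irx5, TALE class factors that neighbour each other on chromosome 8 with a gap of 555557 bases and no protein-coding gene between them, were higher in both lines than in normal cells. Irx3, known from heart and nervous system patterning, had 7.42, 9.01, 8.03 and 8.91 CPM across the HPmECC libraries, 6.07, 6.72, 5.76 and 7.66 CPM across the mECC libraries and 1.69, 0.935, 1.21 and 1.47 CPM across the normal libraries. The libraries of the lines overlapped, and all were above the normal libraries. Irx5 had 8.01, 7.79, 6.61 and 7.29 CPM across the HPmECC libraries, 8.98, 9.45, 8.44 and 8.68 CPM across the mECC libraries and 0.271, 0.156, 0.110 and 0.276 CPM across the normal libraries. All HPmECC libraries lay below all mECC libraries and above all normal libraries. Against normal cells, Irx3 was 4.97-fold higher in mECC and 6.35-fold higher in HPmECC (edgeR adjusted p = 7.57e-11 and 5.40e-12). Irx5 was 42.7-fold higher in mECC and 35.8-fold higher in HPmECC (edgeR adjusted p = 1.11e-15 and 3.80e-15). Between the lines they moved in opposite directions by small amounts, Irx3 1.28-fold higher and Irx5 1.19-fold lower in HPmECC (edgeR adjusted p = 0.00887 and 0.0178). The call on Irx3 was lost by limma on log2(TPM + 1) (adjusted p = 0.0624), and that on Irx5 without mECC replicate 2 (edgeR adjusted p = 0.0603) or HPmECC replicate 3 (edgeR adjusted p = 0.0597).

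Among the sine oculis members, which act with EYA cofactors in muscle, kidney and sensory organs, Six4 and Six5 were expressed in every group and higher in the lines. Six4 had 35.1, 34.7, 36.7 and 33.1 CPM across the HPmECC libraries, 22.3, 23.6, 22.3 and 22.9 CPM across the mECC libraries and 8.87, 7.27, 7.11 and 8.08 CPM across the normal libraries. HPmECC was highest, normal cells lowest, and no groups overlapped. It was higher in HPmECC than in mECC, 1.53-fold (edgeR adjusted p = 4.67e-09, log2 fold change 0.61 with SE 0.05), 2.92-fold higher in mECC than in normal cells (edgeR adjusted p = 4.68e-14) and 4.47-fold higher in HPmECC than in normal cells (edgeR adjusted p = 1.39e-16). Six5 had 14.8, 16.6, 14.1 and 13.8 CPM across the HPmECC libraries, 14.2, 14.7, 15.8 and 15.1 CPM across the mECC libraries and 6.64, 5.87, 6.22 and 6.75 CPM across the normal libraries. Both lines overlapped each other and lay above normal cells, by 2.35-fold in mECC and 2.33-fold in HPmECC (edgeR adjusted p = 3.29e-11 and 4.21e-11). Between the lines Six5 was not called (log2 fold change -0.01 with SE 0.07, edgeR adjusted p = 0.87). Six2, a factor of kidney progenitors, had 8 counts in HPmECC, 2 in mECC and 2 in normal cells, and Six3, a forebrain factor, 2, 2 and 0.

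Emx2, which is required for the urogenital tract in the mouse, was present in all groups and highest in mECC. It had 56.6, 53.0, 53.4 and 52.2 CPM across the HPmECC libraries, 80.2, 79.4, 77.2 and 84.1 CPM across the mECC libraries and 40.6, 41.1, 38.3 and 37.7 CPM across the normal libraries. No groups overlapped. Emx2 was 1.49-fold lower in HPmECC than in mECC (edgeR adjusted p = 1.40e-10, log2 fold change -0.58 with SE 0.04), 2.04-fold higher in mECC than in normal cells (edgeR adjusted p = 1.25e-14, log2 fold change 1.03 with SE 0.04) and 1.37-fold higher in HPmECC than in normal cells (edgeR adjusted p = 6.78e-09, log2 fold change 0.45 with SE 0.04). Emx2os, on the opposite strand with 264 shared exon bases, was ordered alike, at 7.43 ± 0.60 CPM over the HPmECC libraries, 12.4 ± 0.62 CPM over the mECC libraries and 3.55 ± 0.48 CPM over the normal libraries (SD, n = 4 each), and without a strand setting the reads of the shared stretch cannot be assigned. Its relative Emx1 had 0 counts in all 12 libraries.

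The LIM homeobox members were low. Lhx1, needed for the uterine duct in the mouse, had 7 counts over the 4 HPmECC libraries, 106 over the 4 mECC libraries and 0 over the 4 normal libraries. The mECC libraries held 1.11, 0.945, 1.34 and 0.723 CPM and did not overlap with the others. It was 13.5-fold lower in HPmECC than in mECC (edgeR adjusted p = 7.52e-07) and at least 25.6-fold higher in mECC than in normal cells (edgeR adjusted p = 8.43e-08). In HPmECC it was at least 1.77-fold above normal cells (edgeR adjusted p = 0.0113), a call that limma on log2(TPM + 1) did not make (adjusted p = 0.113). Lhx6, a factor of forebrain interneurons and teeth, averaged 4.68 ± 0.309 CPM over the HPmECC libraries, 3.36 ± 0.219 CPM over the mECC libraries and 0.106 ± 0.0373 CPM over the normal libraries (SD, n = 4 each). It was 29.7-fold higher in mECC and 41.3-fold higher in HPmECC than in normal cells (edgeR adjusted p = 3.57e-13 and 3.65e-14). Between the lines it was 1.39-fold higher in HPmECC (edgeR adjusted p = 0.00112), and this call was lost by limma on log2(TPM + 1) (adjusted p = 0.27). Lhx9, a gonad factor, averaged 0.771 ± 0.134 CPM over the HPmECC libraries, 0.513 ± 0.123 CPM over the mECC libraries and 0.831 ± 0.403 CPM over the normal libraries and passed the test in no comparison (edgeR adjusted p from 0.0596 to 0.779). Its direction in HPmECC against normal cells flipped with library totals and by limma. It passed in mECC against normal cells without normal replicate 2 (edgeR adjusted p = 0.0329) or 4 (edgeR adjusted p = 0.0443). Lhx2 had 14, 13 and 0 counts and Lhx8 had 0, 0 and 3 counts in HPmECC, mECC and normal cells.

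The TALE class partners Meis1, Meis2, Meis3, Pbx2 and Pbx3 were expressed in all groups, and no group mean differed from another by more than 3.03-fold. Meis1 had 38.8, 34.6, 35.2 and 37.4 CPM across the HPmECC libraries, 24.2, 23.9, 23.9 and 25.4 CPM across the mECC libraries and 16.2, 17.0, 17.7 and 16.6 CPM across the normal libraries, with no overlap and HPmECC highest. It was higher in HPmECC than in mECC (1.5-fold), 1.44-fold higher in mECC than in normal cells and 2.16-fold higher in HPmECC than in normal cells (edgeR adjusted p = 2.12e-09, 2.33e-08 and 1.44e-13). Meis2 had 30.01, 26.5, 26.7 and 29.99 CPM across the HPmECC libraries, 47.5, 50.7, 47.5 and 51.3 CPM across the mECC libraries and 20.9, 18.4, 17.4 and 18.3 CPM across the normal libraries. Here mECC was highest, again without overlap. It was 1.74-fold lower in HPmECC than in mECC, 2.64-fold higher in mECC than in normal cells and 1.52-fold higher in HPmECC than in normal cells (edgeR adjusted p = 1.72e-10, 3.42e-14 and 3.33e-08). Meis3 had 5.37, 4.83, 4.62 and 4.83 CPM across the HPmECC libraries, 12.1, 12.9, 12.2 and 11.3 CPM across the mECC libraries and 15.2, 15.7, 13.3 and 15.3 CPM across the normal libraries. HPmECC stood well below the other groups, and mECC lay below normal cells by a small margin with no overlap. In HPmECC it was 2.47-fold lower than in mECC and 3.03-fold lower than in normal cells (edgeR adjusted p = 5.48e-11 and 6.85e-13). In mECC it was 1.22-fold lower than in normal cells (edgeR adjusted p = 0.000906), a call lost with library totals (log2 fold change -0.05, edgeR adjusted p = 0.501), and by limma on log2(TPM + 1) the value was 0.00 (adjusted p = 0.982).

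Pbx2 had 62.2, 62.0, 60.6 and 58.9 CPM across the HPmECC libraries, 61.6, 63.0, 58.4 and 63.8 CPM across the mECC libraries and 24.9, 26.0, 26.2 and 24.3 CPM across the normal libraries. The lines overlapped each other, and both were above normal cells, 2.44-fold in mECC and 2.41-fold in HPmECC (edgeR adjusted p = 5.77e-16 and 7.56e-16). Gpsm3, on the same strand, shares 227 exon bases with Pbx2 and had 79 counts in HPmECC, 40 in mECC and 237 in normal cells, against 1872 or more of Pbx2. Between the lines Pbx2 was not called, and its direction was not stable (log2 fold change -0.02 with SE 0.04, edgeR adjusted p = 0.684). Pbx3 had 17.6, 17.7, 16.7 and 18.3 CPM across the HPmECC libraries, 27.6, 26.6, 23.5 and 25.8 CPM across the mECC libraries and 11.9, 10.5, 9.97 and 10.1 CPM across the normal libraries, with mECC highest and no overlap. It was 1.47-fold lower in HPmECC than in mECC, 2.44-fold higher in mECC than in normal cells and 1.67-fold higher in HPmECC than in normal cells (edgeR adjusted p = 1.66e-07, 1.16e-12 and 1.14e-08). Pitx1, a hindlimb and pituitary factor, had 0 counts in all libraries. Satb1, a chromatin organizer of T cells, averaged 0.0764 ± 0.0472 CPM over the HPmECC libraries, 0.191 ± 0.134 CPM over the mECC libraries and 1.65 ± 0.420 CPM over the normal libraries (SD, n = 4 each). It was 8.23-fold lower in mECC and 21.3-fold lower in HPmECC than in normal cells (edgeR adjusted p = 4.39e-07 and 3.66e-08). Satb1 entered the test only through the normal cells, where it was high. Of the 8 leukocyte markers, 6 were called lower in each line, where 44.2% of all genes were in mECC and 43.3% in HPmECC. Some of these, such as Ptprc with 0 counts in HPmECC, 2 in mECC and 86 in normal cells, entered the same way. Their count is therefore no support for a source of Satb1, which was not tested. The remaining markers, Cd79a and the T cell marker Cd3e, were not tested, and Cd3e had 0 counts in HPmECC, 0 in mECC and 1 in normal cells. Between the lines Satb1 was not called (edgeR adjusted p = 0.0683), but was without mECC replicate 4 (edgeR adjusted p = 0.0208) or HPmECC replicate 1 (edgeR adjusted p = 0.0495).

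**Figure D5:**
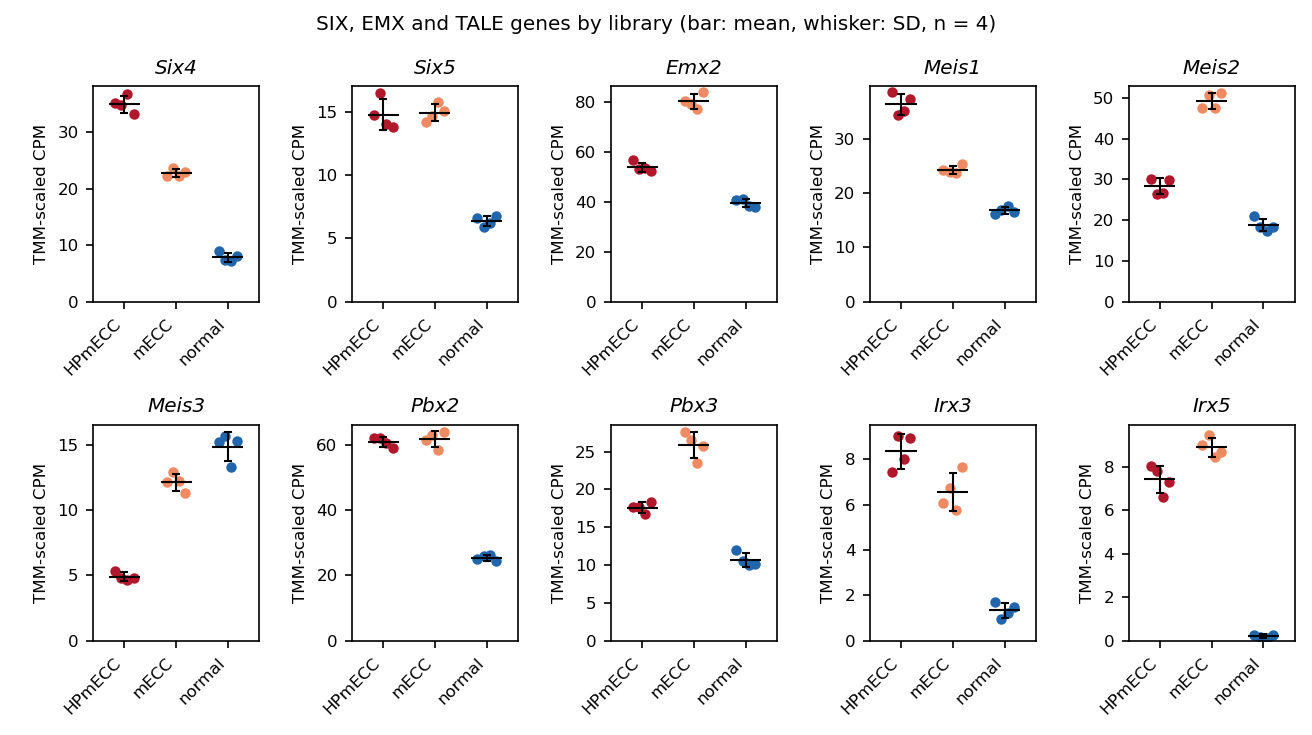
TMM-scaled CPM of Six4, Six5, Emx2, Meis1, Meis2, Meis3, Pbx2, Pbx3, Irx3 and Irx5, 1 point per library, with the mean as a bar and the SD as a whisker (n = 4 per group; each panel has its own axis from 0). All but Meis3 are lowest in the normal libraries, and Meis3 is lowest in HPmECC.

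Cofactors of these proteins were followed in a list of 33 genes outside the family, of which 30 were tested. Between HPmECC and mECC 6 were higher and 16 lower, between mECC and normal cells 19 were higher and 10 lower, and between HPmECC and normal cells 15 were higher and 12 lower. Of all genes tested, 33.8% and 34.5%, 42.1% and 44.2%, and 43.0% and 43.3% were called higher and lower in these comparisons. The cofactors' median log2 fold changes were -0.23, 0.75 and 0.29, beside 0.00, -0.02 and 0.00 over all genes. Some cofactors, such as Sall1, entered the test only through the group where they were high, and the list was chosen with earlier results known. The counts are therefore not support for a shift of the cofactors. Of the 4 EYA genes, cofactors of the sine oculis proteins, Eya4 and Eya1 held the list's largest rises against normal cells. Eya4 averaged 34.4 ± 2.93 CPM over the HPmECC libraries, 34.0 ± 1.72 CPM over the mECC libraries and 0.212 ± 0.136 CPM over the normal libraries (SD, n = 4 each), 154-fold higher in each line than in normal cells (edgeR adjusted p = 2.34e-18 in mECC and 2.20e-18 in HPmECC). Eya1 averaged 11.5 ± 1.08 CPM over the HPmECC libraries, 28.6 ± 1.46 CPM over the mECC libraries and 0.265 ± 0.177 CPM over the normal libraries, 109-fold higher in mECC and 43.9-fold higher in HPmECC (edgeR adjusted p = 9.77e-18 and 3.19e-15). Eya2 divided the lines, at 2.67 ± 0.432 CPM over the HPmECC libraries, 56.8 ± 1.15 CPM over the mECC libraries and 11.2 ± 1.21 CPM over the normal libraries. It was 21.0-fold lower in HPmECC than in mECC (edgeR adjusted p = 1.70e-18) and 4.15-fold lower in HPmECC than in normal cells (edgeR adjusted p = 5.93e-13). In mECC it was 5.06-fold higher than in normal cells (edgeR adjusted p = 9.25e-17). Eya3 went the other way, 1.42-fold lower in mECC and 1.35-fold lower in HPmECC than in normal cells (edgeR adjusted p = 3.56e-10 and 3.77e-09).

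Other named cofactors were Tle2, a Groucho corepressor, 35.1-fold higher in mECC and 13.7-fold higher in HPmECC than in normal cells (edgeR adjusted p = 4.43e-19 and 3.52e-16). Sall1, a zinc finger repressor of kidney development, had 12 counts in HPmECC, 3 in mECC and 9644 in normal cells. The ratio of normal cells to mECC was 4430 (exact 95% counting interval 1520 to 21500), and Sall1 was 1010-fold lower in HPmECC than in normal cells (edgeR adjusted p = 2.98e-22). Lmo4, a LIM-only cofactor, was 3.80-fold lower in mECC and 3.87-fold lower in HPmECC (edgeR adjusted p = 7.72e-18 and 6.94e-18), and Tgif1, a TALE class repressor, 2.97-fold lower in mECC (edgeR adjusted p = 2.77e-19). Between the lines, Tgif2, Pknox2 and Tle4 were 1.58-fold, 1.38-fold and 1.34-fold higher in HPmECC (highest edgeR adjusted p = 5.60e-06). Tshz3 and Tshz2, teashirt zinc finger genes, were 46.7-fold and 3.13-fold lower in HPmECC than in mECC (edgeR adjusted p = 1.33e-13 and 1.32e-12).

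A second list held 34 genes of uterine duct and uterine development outside the family, of which 31 were tested. Between HPmECC and mECC 6 were higher and 19 lower, between mECC and normal cells 12 were higher and 17 lower, and between HPmECC and normal cells 7 were higher and 19 lower, with median log2 fold changes of -0.59, -0.35 and -0.95. The shares of all genes called higher and lower were again 33.8% and 34.5%, 42.1% and 44.2%, and 43.0% and 43.3%. Some genes of this list, such as Wt1, Hoxd10, Hoxd11 and Ihh, entered the test only through the normal cells, where they were high. The list was chosen with earlier results known as well, so these counts are not support for a shift of these genes. Osr1, a factor of intermediate mesoderm, was 25.1-fold higher in mECC than in normal cells, Gata3 14.6-fold and Foxa2, a uterine gland factor, 9.68-fold (highest edgeR adjusted p = 1.42e-14). Wt1 and Hoxd11 had 0 counts in mECC against 2096 and 690 in normal cells, at least 964-fold and 317-fold lower. Hoxd10 had 1 count in mECC and 659 in normal cells (ratio of normal cells to mECC 909, exact 95% counting interval 163 to 36000). Sox17 had 0 counts in HPmECC against 26647 in normal cells, at least 11700-fold lower, and the ligand gene Ihh had 2 counts against 3448 (ratio 2280, interval 630 to 18800). Wnt7a, a ligand of the uterine epithelium, had 5 counts in HPmECC and 21518 in normal cells. In HPmECC against normal cells, Gata3, the hedgehog receptor gene Ptch1 and the retinoic acid receptor gene Rara were 9.23-fold, 6.63-fold and 4.32-fold higher (highest edgeR adjusted p = 7.50e-13). Between the lines Fgfr2, Bmp4 and Ptch1 were 6.19-fold, 3.60-fold and 2.45-fold higher in HPmECC (highest edgeR adjusted p = 1.87e-10). Wnt7a, Wnt4 and Foxa2 were 168-fold, 16.6-fold and 11.3-fold lower there (highest edgeR adjusted p = 2.97e-15).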

How the data were processed

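Messenger RNA was sequenced in 12 TruSeq libraries, as the labels' protocols say, and a strand setting for the counting is not given in the sources used here. Per the submitters' processing notes, Trim Galore, STAR 2.6.1a, RSEM 1.3.1 and GRCm38 were used. The authors deposited estimated counts per gene, all whole numbers, and TPM. FPKM was not used. Symbols came from a gene name table for 55144 of 55385 gene IDs, and Tle5 was matched through its synonym Aes. Positions are from GENCODE M21 on GRCm38 and start regions from RefSeq on GRCm38.p6, where 29 of 37 members were matched. The members and gene lists were chosen with earlier results of these data known.

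The counts were scaled by TMM and tested with edgeR 4.0.16 (R 4.3.3), in 1 quasi-likelihood fit over the 3 groups without covariates, 2-sided, after edgeR's expression filter with a minimum count of 10, which left 15283 genes. The biological coefficient of variation was 4.27%. Floors are 3 counts over the 4 libraries of a group, and count ratios have exact 95% intervals, which cover counting error only. Members with a mean of at least 5 CPM in a group are given by library (22 members), and up to 3 genes per direction and comparison at that level were named from each list. Replicates differed by more than sampling noise (chi-square per degree of freedom 2.58 to 7.16), so no library was taken for a second copy of another. This compares libraries with counting noise only and does not show that they came from separate cultures. The alternatives tried were size factors by median of ratios, unscaled totals, other filters, DESeq2 1.42.0, limma 3.58.1 on log2(TPM + 1) and log2(TPM + 0.1), fits of the 2 groups compared, a replicate block and each library left out. Figures were drawn with matplotlib 3.10.9.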

Additional observations from a re-analysis of the deposited data

Results flagged for a closer look

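In 4 of 58 groups of 4 libraries examined, 1 library stood apart by Dixon's 95% criterion on the gap to its nearest neighbour, where chance gives about 1 in 20. Pax2 was 1.252 CPM in HPmECC replicate 4, with the other HPmECC libraries at 1.522 to 1.577 CPM. Pax9 was 13.23 CPM in mECC replicate 2, with the others at 11.37 to 11.62 CPM. Dlx2 was 7.363 CPM in HPmECC replicate 2, with the others at 7.767 to 7.844 CPM. Prrx1 was 21.6 CPM in normal replicate 1, with the others at 17.87 to 18.5 CPM. The 3 groups did not overlap in any of these 4 genes, with these libraries included.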

How the results depend on the processing

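Over 21 alternatives, 12 of them leaving out 1 library, 1689 of 1728 recomputed member values kept their direction and their side of the threshold, 11 lost a call, 11 gained one and 17 changed direction. The number of members higher in HPmECC than in mECC was 4 with a filter of at least 10 CPM in 4 libraries and 5 by limma with either pseudocount, where the edgeR count was 8. Under the same filter, 11 members were higher in mECC and 11 in HPmECC than in normal cells, and 11 uterine development genes were lower in mECC than in normal cells, since fewer genes were tested. Changed directions were those of Msx2 in mECC against normal cells (0.164 with library totals, 0.168 and 0.172 by limma), Dlx1 in HPmECC against mECC (-0.117 and -0.133 by limma), Lhx9 in HPmECC against normal cells (0.101 with library totals, 0.037 and 0.141 by limma), Meis3 in mECC against normal cells (0.002 and 0.002 by limma) and Pbx2 in HPmECC against mECC (0.004 and 0.004 by limma). The cause was not tested. Leaving out 1 library gave -0.075 to 0.028 for Six5 and -0.044 to 0.006 for Pbx2 in HPmECC against mECC, and -0.241 to 0.301 for Lhx9 in HPmECC against normal cells. Over the same fits, members higher and lower numbered 8 to 8 and 12 to 14 between HPmECC and mECC, 17 to 18 and 7 to 8 between mECC and normal cells, and 19 to 19 and 8 to 8 between HPmECC and normal cells. With a replicate block the member counts were 8 and 13, 17 and 7, and 19 and 8, as without it, and 20 in place of 19 uterine development genes were lower in HPmECC than in mECC. The 12 correlations of same-numbered libraries from different groups were weak, from -0.027 to 0.08. Among the libraries of the other groups, 6 of 12 libraries correlated best with 1 of their own number. Whether that exceeds chance was not tested. Depth limits the 9 untested members, whose highest group mean was 0.211 CPM.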

Other observations

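The ratio of counts to TPM gives the effective transcript length that the authors' estimate assigned to a gene, here relative to the median gene of the library. For Pbx2 it was 0.649 ± 0.023 in HPmECC, 0.686 ± 0.031 in mECC and 0.752 ± 0.029 in normal cells (SD, n = 4 each), a difference of -13.7% for HPmECC and -8.78% for mECC relative to normal cells, taken from the rounded means. For Six5 it was 1.23 in HPmECC, 1.22 in mECC and 1.23 in normal cells. Some other members had differences of similar size, with a wide spread in at least 1 group. Relative to normal cells, the difference in mECC was 15.4% for Meis2 (1.20 ± 0.079 in mECC, 1.04 ± 0.123 in normal cells). For Prrx2 it was -13.4% (0.400 ± 0.010 in mECC, 0.462 ± 0.103 in normal cells). For Dlx1 the difference was 16.8% in HPmECC relative to mECC (1.03 ± 0.151 in HPmECC, 0.882 ± 0.178 in mECC). These values describe the estimate for each gene and were not tested.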
